A study of Mus musculus with 6 samples.

Results

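Epidermal differentiation and junction genes were followed in fibroblast samples sorted from mouse ear skin. The group comprised 46 genes listed by their known roles, and every probe set naming only 1 of them was used. The list was chosen with earlier results of these data known. Of the 46 genes 45 had such a probe set, 71 probe sets in all, among 18193 genes and 34945 probe sets of the array table. Desmoglein 3 (Dsg3) had no probe set of its own and was not analysed here. The genes comprise components of the cornified envelope, desmosome genes, genes of other junctions, regulators, kallikrein proteases and other keratinocyte products.

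The samples fell into 2 groups of male mice, 4 months old. Cancer-associated fibroblasts (CAF, n = 3 arrays) came from the ears of K14-HPV16 mice with visible dysplasia, in which the keratin 14 promoter drives genes of a human papillomavirus in basal keratinocytes. Normal dermal fibroblasts (NDF, n = 3 arrays) came from normal ears of non-transgenic FVB/n mice. Both were sorted by flow cytometry for PDGFRα, a receptor on the surface of fibroblasts, from ear suspensions of 15 mice per genotype. The labels call the arrays biological repetitions but do not say whether each came from its own pool, and what the p-values weigh is only how far these arrays differ within a group, which may be technical. The promoter is that of an epidermal keratin, so the sorted CAF are cells taken from beside the transgenic epidermis.

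Keratinocytes of the upper epidermis cross-link precursor proteins beneath their membrane into the cornified envelope, a shell that seals the skin. Desmosomes fasten neighbouring keratinocytes by cadherins (desmogleins and desmocollins) whose tails are tied to keratin filaments by plakoglobin, plakophilins and desmoplakin. The transcription factor p63, encoded by Trp63, maintains the basal layer, and Grainyhead-like factors act later in barrier formation. Small proline-rich (Sprr) proteins and the gap junction protein connexin 26 (Gjb2) are known to be scarce in resting skin between hairs and abundant in wounded or hyperplastic epidermis. These are mostly known as genes of epithelial cells rather than of dermal fibroblasts, though not all are limited to epithelia.

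The epidermal genes had mostly positive differences, and 2 of them rose in CAF past the test, Sprr1b and Gjb2. Values are log2 intensities, on which 1 unit is a doubling, and each gene is represented by its probe set with the highest mean. The test was limma's over all genes, two-sided, with a Benjamini-Hochberg adjusted p under 0.05 as the threshold. The 2 called genes are 4.44% of the 45 measured, beside 0.517% of all genes called in either direction and 0.489% called as higher. No member was called as lower. At an unadjusted p under 0.05, 17 members were higher and 0 lower, where 4.93% of all genes were higher and 4.02% lower. Every CAF array lay above every NDF array for 17 members (37.8%), against 6.78% of all genes, and below for 0 members, against 8.66% of all genes. The median difference, CAF minus NDF, was 0.67 over the members and -0.04 over all genes. With 45 values between -0.68 and 6.13, 38 were positive and 7 negative. Since the list was chosen with earlier results known, the shares beside all genes are a description and not a test. In bulk samples, a different number of cells of a type and a different amount of RNA per cell cannot be told apart.

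**Figure D1:**
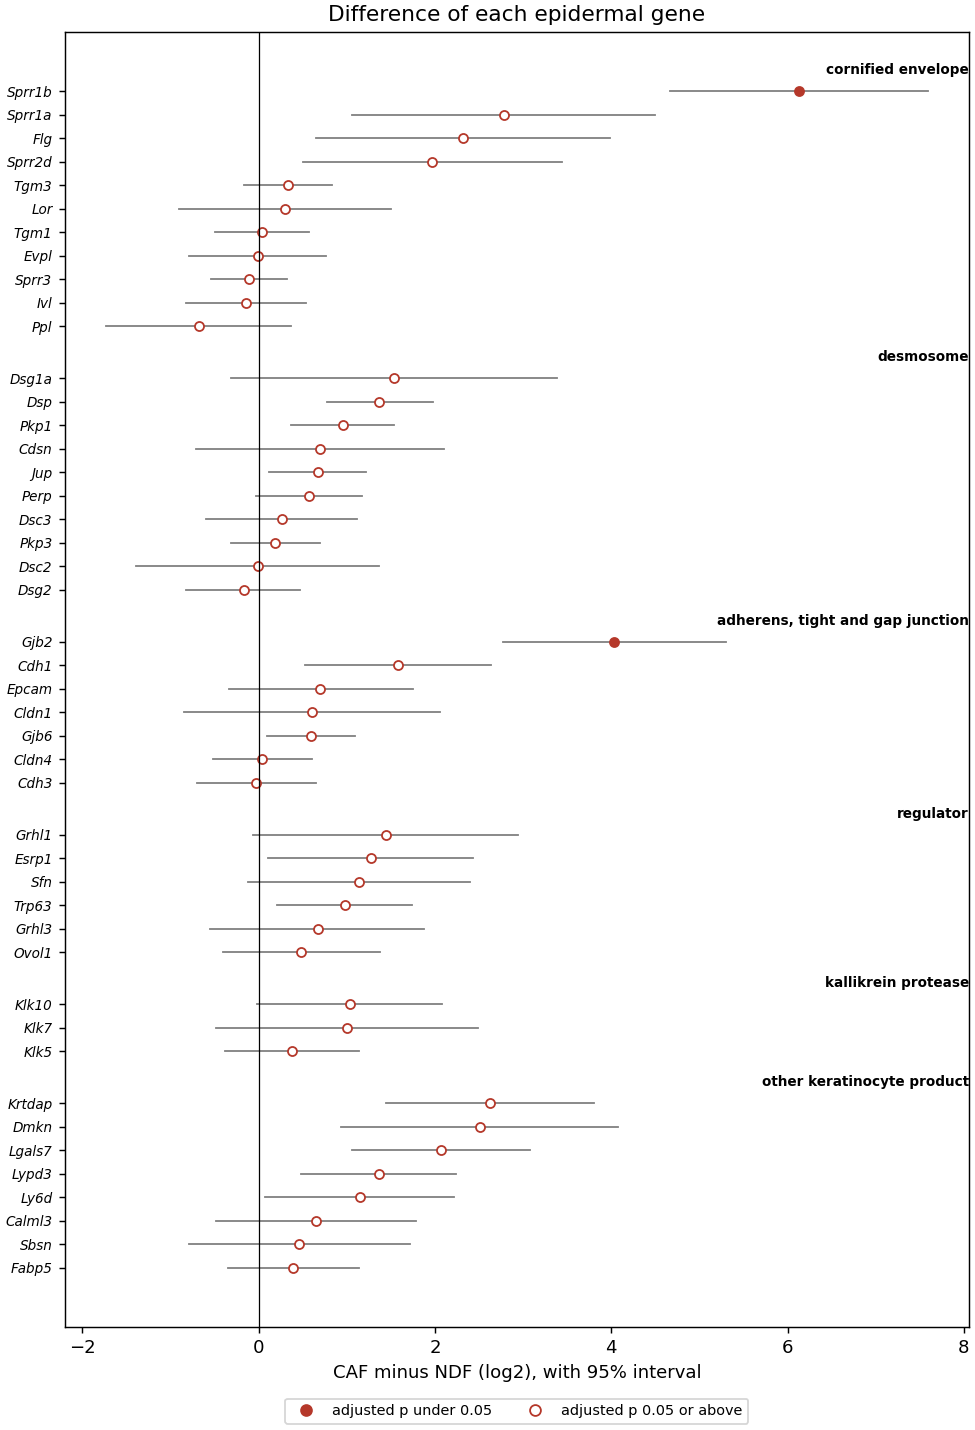
Difference between CAF and NDF for each of the 45 measured epidermal genes (x axis, log2 units, CAF minus NDF), grouped by role, with the moderated 95% interval of limma. Filled points mark the 2 genes past the adjusted threshold, Sprr1b at 6.13 and Gjb2 at 4.03.

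Other cell types in the samples were gauged by their markers. The fibroblast list was high in both groups, with array medians of 12.27 to 12.71 in CAF and 12.47 to 12.71 in NDF, and the sort marker Pdgfra was at 12.54 ± 0.11 in CAF and 12.46 ± 0.15 in NDF (SD, n = 3). None of its 12 genes was called. Transcripts of basal keratins were measurable in both groups. Krt14, on the brightest of its 3 probe sets, was at 11.58 ± 0.79 in CAF and 9.39 ± 0.40 in NDF. Krt5 was at 10.22 ± 0.73 in CAF and 8.56 ± 0.04 in NDF. Which cells held them was not tested. Of 12 epidermal keratins 3 rose and none fell, with a median difference of 1.92. The 3 were keratins of wounded and hyperplastic epidermis, Krt6b (6.60 ± 0.28, adjusted p = 0.00039), Krt6a (5.05 ± 0.42, adjusted p = 0.00998) and Krt16 (4.82 ± 0.44, adjusted p = 0.0148). Krt6b passed whichever array was left out. Krt6a missed the threshold without NDF replicate 2 (0.0558) or 3 (0.0755), and Krt16 without any 1 NDF array (0.0612 to 0.0879). The summed level of all 12 epidermal keratins, as a log2 of summed linear intensities, was 12.28 to 13.65 in CAF and 10.80 to 11.14 in NDF. Of 13 macrophage and neutrophil markers 6 rose, with summed levels of 13.27 to 14.39 in CAF and 8.96 to 10.20 in NDF. The 6 were Ptprc, Tyrobp, Cd14, S100a8, Clec4d and Trem1. The bright S100a9, not called (limma adjusted p = 0.0733), and S100a8, at CAF means of 12.26 and 12.18, weigh most in that sum. Differences were positive for 12 of the 13. Cd68, Adgre1, Csf1r and Itgam, at 1.13, 1.24, 0.67 and -0.10, were among those not called. Of 8 endothelial markers 1 rose, with summed levels of 10.15 to 11.78 in CAF and 9.74 to 10.45 in NDF. These sums include Tek, the brightest of the 8 on average, at 10.51, 10.58 and 6.99 in CAF and 9.19 to 10.13 in NDF. The median difference of the 8 was 1.77. Every CAF array lay above every NDF array for 6 of them (75%), against 6.78% of all genes. Array medians over all probe sets were 4.75 to 4.87 in CAF and 4.73 to 4.84 in NDF. The part of these other cells in the results that follow was not tested.

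Among cornified envelope genes, Sprr1b rose and 3 further genes were higher on every CAF array without passing the adjusted test. Sprr1b, a small proline-rich precursor of the envelope, was at 9.25, 8.32 and 10.80 in CAF replicates 1, 2 and 3, against 3.87, 3.06 and 3.05 in NDF. The groups were separated by more than 4 log2 units, and the difference of 6.13 ± 0.61 (SE) was past the threshold (limma adjusted p = 0.0186). Its NDF mean, 3.33, was a low signal, under the 25th percentile of gene means, 4.04. Its relative Sprr1a was at 7.20, 6.14 and 9.25 in CAF, against 4.66, 4.65 and 4.93 in NDF. The lowest CAF array was above the highest NDF array, but the CAF arrays spanned several units, and the difference of 2.78 ± 0.72 did not pass (adjusted p = 0.239). Filaggrin (Flg), which bundles keratin filaments in cornifying cells, was at 6.08, 4.66 and 7.55 in CAF, against 3.62, 4.37 and 3.35 in NDF. CAF replicate 2 lay close to the NDF arrays, and the difference of 2.32 had an adjusted p of 0.339. Sprr2d was at 6.18, 5.55 and 8.04 in CAF, against 5.04, 4.47 and 4.34 in NDF, a difference of 1.97 (adjusted p = 0.363). In all 4 genes CAF replicate 3 was the highest array and CAF replicate 2 the lowest of its group.

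The other 7 envelope genes had groups that overlapped and differences of -0.68 to 0.33. They include involucrin (Ivl) and loricrin (Lor), the main precursors of the early and of the mature envelope, at -0.14 ± 0.29 and 0.30 ± 0.50 (SE). The transglutaminases Tgm1 and Tgm3, the enzymes that cross-link the shell, differed by 0.04 (-0.50 to 0.57) and 0.33 (-0.17 to 0.83). Sprr3 differed by -0.11 (-0.54 to 0.32). Envoplakin (Evpl) and periplakin (Ppl), which link the envelope to desmosomes, differed by -0.01 and -0.68. The second Ivl probe set differed by 0.65, opposite in sign to the first. Over the 11 envelope genes the median was 0.30. Only 4 of the 11 had a mean level over all 6 arrays at or above the median gene, 6.05. Of these, Sprr1b and Sprr1a reached it through the CAF arrays, with NDF means of 3.33 and 4.75. RMA compresses differences of dim probe sets, so a change in dim genes may be understated.

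Promoter windows are shown for Sprr1b, the envelope gene that rose, for its relatives Sprr1a and Sprr2d, and for Sprr3, whose groups overlapped. They come from RefSeq, build GRCm38.p6, and run from 250 bases before to 50 after the annotated start, 5′ to 3′ on the gene's strand. The 4 genes lie together on chromosome 3, at chr3:92438730-92439029 (minus strand) for Sprr1b, chr3:92485832-92486131 (minus) for Sprr1a, chr3:92338890-92339189 (plus) for Sprr2d and chr3:92458671-92458970 (minus) for Sprr3. Capitals mark matches, on either strand, to the AP-1 motif TGANTCA or to the TATA box TATAAA.
Sprr1b: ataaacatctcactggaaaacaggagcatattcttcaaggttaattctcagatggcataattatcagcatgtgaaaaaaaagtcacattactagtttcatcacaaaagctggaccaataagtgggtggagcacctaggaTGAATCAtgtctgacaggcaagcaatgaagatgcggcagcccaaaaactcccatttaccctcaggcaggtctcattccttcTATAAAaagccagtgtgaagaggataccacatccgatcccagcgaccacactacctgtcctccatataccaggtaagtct
Sprr1a: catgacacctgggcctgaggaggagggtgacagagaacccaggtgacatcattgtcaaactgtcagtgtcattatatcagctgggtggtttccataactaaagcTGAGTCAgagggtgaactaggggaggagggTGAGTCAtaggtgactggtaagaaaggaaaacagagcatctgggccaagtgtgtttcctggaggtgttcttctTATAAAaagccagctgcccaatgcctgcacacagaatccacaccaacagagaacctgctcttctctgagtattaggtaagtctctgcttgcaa
Sprr2d: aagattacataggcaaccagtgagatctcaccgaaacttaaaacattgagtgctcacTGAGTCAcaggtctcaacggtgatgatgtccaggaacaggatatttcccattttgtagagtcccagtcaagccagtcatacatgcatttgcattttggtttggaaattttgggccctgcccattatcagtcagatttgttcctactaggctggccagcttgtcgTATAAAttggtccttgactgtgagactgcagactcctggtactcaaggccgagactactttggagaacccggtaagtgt
Sprr3: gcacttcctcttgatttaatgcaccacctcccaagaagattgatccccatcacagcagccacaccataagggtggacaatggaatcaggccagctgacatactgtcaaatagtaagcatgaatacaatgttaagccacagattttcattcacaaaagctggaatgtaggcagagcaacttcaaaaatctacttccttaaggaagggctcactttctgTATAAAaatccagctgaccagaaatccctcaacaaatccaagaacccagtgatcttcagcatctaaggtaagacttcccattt

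The AP-1 letters began at -111 in Sprr1b, at -146 and -116 in Sprr1a and at -193 in Sprr2d, counted from the start, and had no match in this window of Sprr3. The TATA letters began at -30 in Sprr1b, -43 in Sprr1a, -29 in Sprr2d and -33 in Sprr3. Promoter windows of 28 members were used. The rest had no RefSeq window of full length or lay on chromosome 18, as did Dsg1a, Dsg2, Dsc2 and Dsc3. That chromosome was not removed from all windows. An AP-1 match was present for 10 of the 28, beside 7.81% of all 32851 windows, and a TATA match for 9 of the 28, beside 13.6% of all windows. A member counted if any of its windows matched, whereas the shares count each window singly, so they are not like measures. The 10 were Cldn4, Dmkn, Flg, Ivl, Krtdap, Lor, Sbsn, Sprr1a, Sprr1b and Sprr2d, so Ivl and Lor carried the letters as well. Neither motif overlapped the other in the windows shown. A match is a description of the letters, not of a factor bound there.

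Desmosome genes were measured for 10 of 11 members, and none passed the test, although 4 were higher on every CAF array. Desmoplakin (Dsp), which anchors keratin filaments, was at 10.83, 10.08 and 10.46 in CAF, against 8.99, 8.89 and 9.37 in NDF. The lowest CAF array was above the highest NDF array, and the difference of 1.37 ± 0.25 had an adjusted p of 0.102. Another Dsp probe set differed by 1.55 and a dim one by -0.09. Plakophilin 1 (Pkp1), a plaque protein of suprabasal desmosomes, was at 11.19, 10.38 and 11.06 in CAF, against 9.91, 9.90 and 9.95 in NDF, a difference of 0.96 ± 0.25 (adjusted p = 0.237). Plakoglobin (Jup), a plaque protein shared with adherens junctions, was at 10.41, 10.05 and 10.78 in CAF, against 9.61, 9.73 and 9.88 in NDF (difference 0.67, adjusted p = 0.429). The p63 target Perp, a membrane protein of desmosomes, was at 12.69, 12.12 and 12.99 in CAF, against 11.96, 12.07 and 12.05 in NDF (difference 0.57, adjusted p = 0.588). For Perp the lowest CAF array was barely above the NDF arrays.

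The desmosomal cadherins did not share one pattern. Dsg1a, a desmoglein of the upper epidermis, was at 8.11, 5.40 and 7.69 in CAF, against 5.15, 4.89 and 6.56 in NDF, so that the mean was 1.53 higher (95% interval -0.31 to 3.38). Its groups overlapped, because CAF replicate 2 fell below NDF replicate 3. The cadherins Dsg2, Dsc2 and Dsc3 differed by -0.17 (-0.82 to 0.47), -0.01 (-1.39 to 1.37) and 0.26 (-0.60 to 1.11), also with overlapping groups. Dsg2 was at 10.67 ± 0.46 in CAF and 10.84 ± 0.19 in NDF, and its 2 next brightest probe sets differed by -0.17 and 0.22. Plakophilin 3 (Pkp3) and corneodesmosin (Cdsn), the glycoprotein of desmosomes in cornified cells, differed by 0.19 and 0.70. Over the 10 genes the median was 0.62.

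Of 7 genes of adherens, tight and gap junctions Gjb2 rose and none fell. Gjb2 was at 11.12, 9.93 and 10.98 in CAF, against 7.70, 5.87 and 6.36 in NDF. The groups lay more than 2 log2 units apart, and the difference was 4.03 ± 0.53 (adjusted p = 0.039). NDF replicate 1 was the highest of its group. The related connexin 30 gene Gjb6 was at 3.62, 3.14 and 3.58 in CAF, against 2.99, 2.91 and 2.67 in NDF, a difference of 0.59 ± 0.21 at a low signal (adjusted p = 0.446). E-cadherin (Cdh1), the adherens junction cadherin of epithelia, was at 8.99, 7.72 and 9.55 in CAF, against 7.27, 7.19 and 7.06 in NDF. All CAF arrays were above the NDF arrays, and the difference was 1.58 ± 0.45 (adjusted p = 0.298). The epithelial adhesion molecule gene Epcam was at 7.25, 6.54 and 6.72 in CAF, against 5.18, 6.83 and 6.39 in NDF, a difference of 0.70 with overlapping groups. P-cadherin (Cdh3) and the claudins Cldn1 and Cldn4, which form tight junctions, differed by -0.03, 0.60 and 0.04. The median over the 7 genes was 0.60.

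The promoter window of Gjb2, the junction gene that rose, is given for comparison with the Sprr windows, from the same RefSeq table and build, at chr14:57104653-57104952 on the minus strand. It held neither the AP-1 nor the TATA letters, so it has no capitals, and 1 match to the NF-κB motif began at -134.
Gjb2: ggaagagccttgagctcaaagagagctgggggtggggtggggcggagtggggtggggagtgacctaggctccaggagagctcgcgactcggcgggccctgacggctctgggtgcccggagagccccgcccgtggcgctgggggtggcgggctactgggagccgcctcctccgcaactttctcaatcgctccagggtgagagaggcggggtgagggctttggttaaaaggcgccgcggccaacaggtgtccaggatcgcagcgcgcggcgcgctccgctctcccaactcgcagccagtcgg

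An NF-κB match was present for 5 of the 28 members whose windows were used, Dmkn, Gjb2, Jup, Klk10 and Krtdap, beside 8.46% of all windows. The Grainyhead letters AACNNGTT were present for 2, Gjb6 and Sfn, beside 4.20% of all windows. As above, these counts are per member and the shares per window.

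Both calls depended on the arrays included. Sprr1b passed whichever CAF array was left out, but its adjusted p was 0.0812, 0.107 and 0.111 without NDF replicate 1, 2 and 3, while the difference stayed between 5.99 and 6.40. Gjb2 missed the threshold without any 1 of the 6 arrays, at adjusted p values of 0.0526 to 0.193, with differences of 3.65 to 4.56. It was also at 0.0512 on quantile normalisation. When all 34945 probe sets were tested singly, Sprr1b passed (adjusted p = 0.0292) and Gjb2 did not (adjusted p = 0.0548). The 26 other probe sets of the 15 members with several differed by -0.47 to 1.55, none of them past the threshold.

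**Figure D2:**
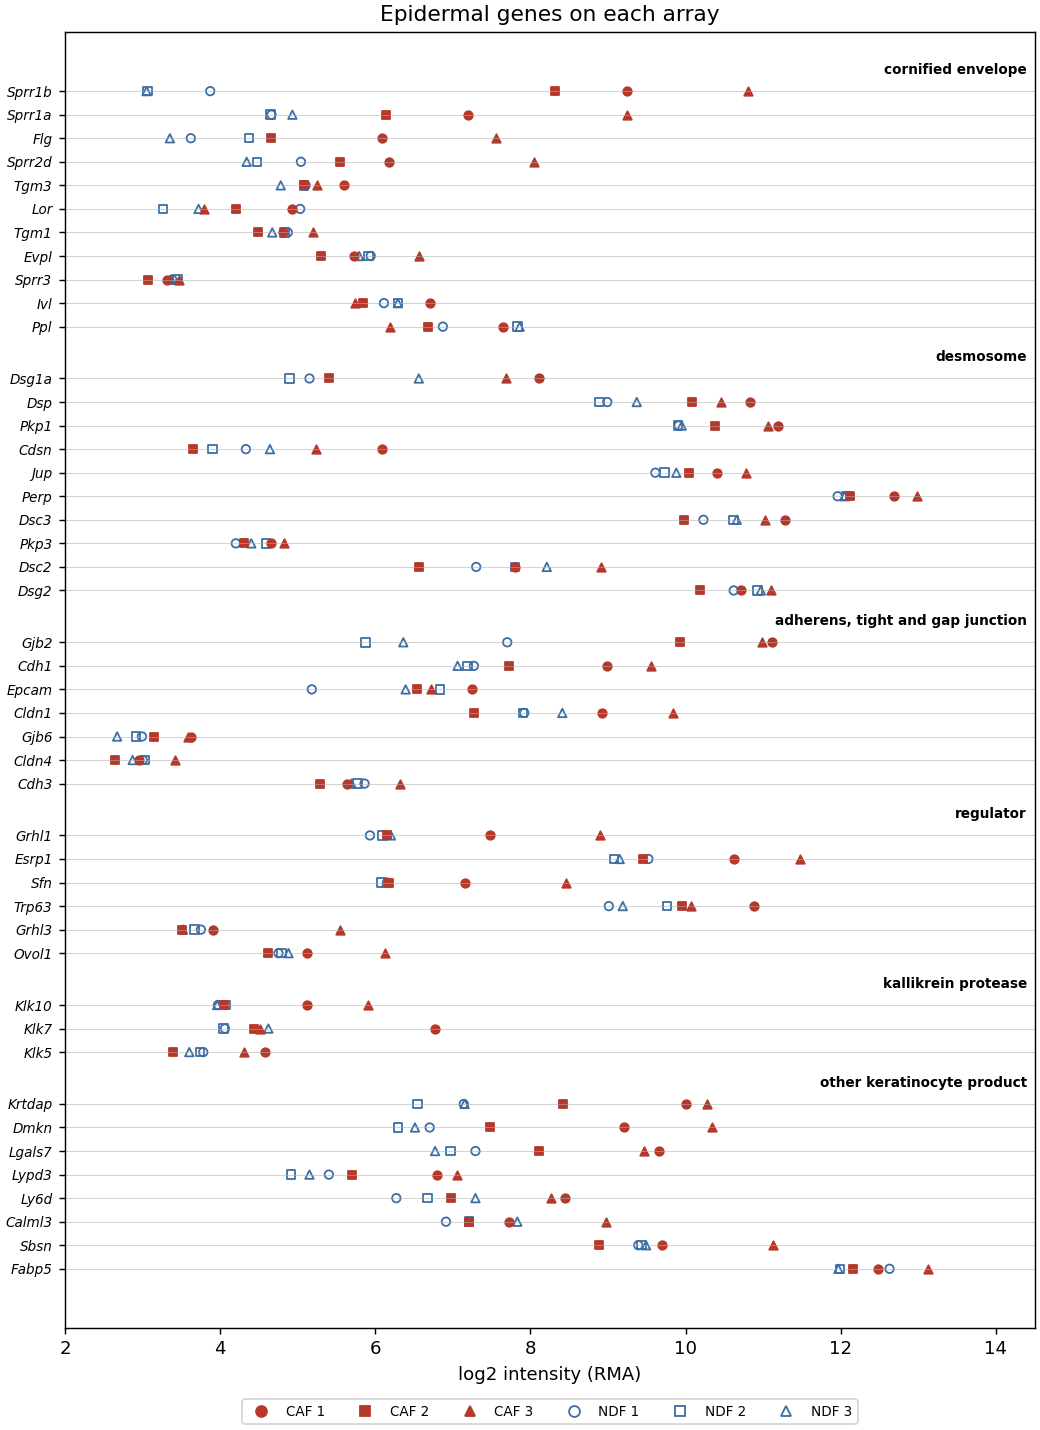
Log2 intensity (x axis) of the 45 measured epidermal genes on each of the 6 arrays, CAF filled and NDF open, with the replicate number given by the shape. Levels of different genes are not comparable, since probe sets differ in brightness. CAF replicate 2 (filled squares) is the lowest CAF array for 42 of the 45 genes.

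Regulators of the epidermal programme were higher on average in CAF for 6 of 6 genes, none past the threshold, with a median of 1.06. Trp63 was at 10.88, 9.95 and 10.07 in CAF, against 9.01, 9.76 and 9.19 in NDF. All CAF arrays were above, CAF replicate 2 only narrowly, and the difference was 0.98 ± 0.32 (adjusted p = 0.397). Its other 3 probe sets were dim and differed by -0.08 to -0.01. The epithelial splicing regulator gene Esrp1 was at 10.63, 9.45 and 11.48 in CAF, against 9.52, 9.08 and 9.15 in NDF (difference 1.27, adjusted p = 0.506), and the Grainyhead-like gene Grhl1 at 7.48, 6.15 and 8.90 in CAF, against 5.93, 6.09 and 6.20 in NDF (difference 1.44, adjusted p = 0.584). In both, CAF replicate 2 was within the range of the NDF arrays. Stratifin (Sfn, 14-3-3σ), a cell cycle inhibitor of differentiating keratinocytes, was at 7.16, 6.18 and 8.46 in CAF, against 6.15, 6.07 and 6.14 in NDF (difference 1.14, adjusted p = 0.615). Grhl3, a barrier factor, and Ovol1, a repressor of basal genes, differed by 0.67 and 0.48 and reached their highest value on CAF replicate 3.

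The kallikreins Klk5, Klk7 and Klk10 are secreted serine proteases, of which Klk5 and Klk7 cut the desmosomes of cells to be shed. Klk10 was at 5.12, 4.05 and 5.90 in CAF, against 3.97, 4.07 and 3.96 in NDF, or 1.03 higher on average (95% interval -0.02 to 2.08). Klk7 was at 6.77, 4.43 and 4.51 in CAF, against 4.06, 4.04 and 4.62 in NDF (1.00, -0.49 to 2.49), so only CAF replicate 1 stood above the NDF arrays. Klk5 was at 4.58, 3.39 and 4.30 in CAF, against 3.78, 3.74 and 3.60 in NDF (0.38, -0.38 to 1.14). All 3 had a mean below the median gene.

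Of 8 other keratinocyte products none passed the test, and all 8 had positive differences, with the highest median of the roles, 1.26. Krtdap, a secreted peptide of differentiating keratinocytes, was at 10.01, 8.42 and 10.27 in CAF, against 7.14, 6.54 and 7.15 in NDF. Its groups were separate, at 2.62 ± 0.49 (adjusted p = 0.107). Galectin 7 (Lgals7), a lectin of stratified epithelia, was at 9.66, 8.11 and 9.47 in CAF, against 7.29, 6.97 and 6.77 in NDF, at 2.07 ± 0.42 (adjusted p = 0.128). Without CAF replicate 2, the lowest CAF array for both, both passed, Krtdap at 3.19 (adjusted p = 0.0206) and Lgals7 at 2.56 (adjusted p = 0.0275). Neither passed when any other single array was left out. The limma adjusted p was then 0.121 to 0.375 for Krtdap and 0.16 to 0.48 for Lgals7. Dermokine (Dmkn), secreted by upper keratinocytes, was at 9.20, 7.48 and 10.34 in CAF, against 6.70, 6.29 and 6.51 in NDF (2.51 ± 0.66, adjusted p = 0.251). The surface protein gene Lypd3 was at 6.79, 5.70 and 7.05 in CAF, against 5.40, 4.91 and 5.15 in NDF (1.36 ± 0.37, adjusted p = 0.269). These 4 were higher on every CAF array. The groups overlapped for the surface antigen gene Ly6d (1.15), the calmodulin-like gene Calml3 (0.65), suprabasin (Sbsn, 0.46) and the fatty acid carrier Fabp5 (0.39). The dimmest Sbsn probe set differed by -0.47, while the others differed by 0.46 and 0.48.

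The CAF arrays differed among themselves in these genes more than the NDF arrays did. The median SD per gene was 0.74 in CAF and 0.21 in NDF over the members, beside 0.35 in CAF and 0.21 in NDF over all genes. CAF replicate 2 was the lowest of its group for 42 of 45 members (93.3%), beside 41.0% of all genes, and the highest for 0. CAF replicate 3 was the highest for 28 members and CAF replicate 1 for 17. In NDF each array was the lowest for 14 to 16 members. The median member was at 7.48, 6.18 and 8.26 in CAF replicates 1, 2 and 3, against 5.94, 6.07 and 6.29 in NDF. The keratin list had the same order at its low end, with medians of 9.54, 8.10 and 9.18 in CAF and 6.12 to 6.26 in NDF. CAF replicate 2 was instead the highest for macrophage and neutrophil markers, at 7.82, 8.83 and 8.59 in CAF and 4.39 to 4.99 in NDF, and for endothelial markers, at 6.59, 7.96 and 6.55 in CAF and 4.57 to 5.17 in NDF. Fibroblast markers were at 12.71, 12.44 and 12.27 in CAF and 12.47 to 12.71 in NDF. Without CAF replicate 2 the median difference of the members was 1.08, and 3 were called, Sprr1b, Krtdap and Lgals7. Gjb2 was no longer called in that fit (limma adjusted p = 0.062). Over all genes 40 were then called, against 94 with all arrays. The part of keratinocyte RNA in these differences was not tested.

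**Figure D3:**
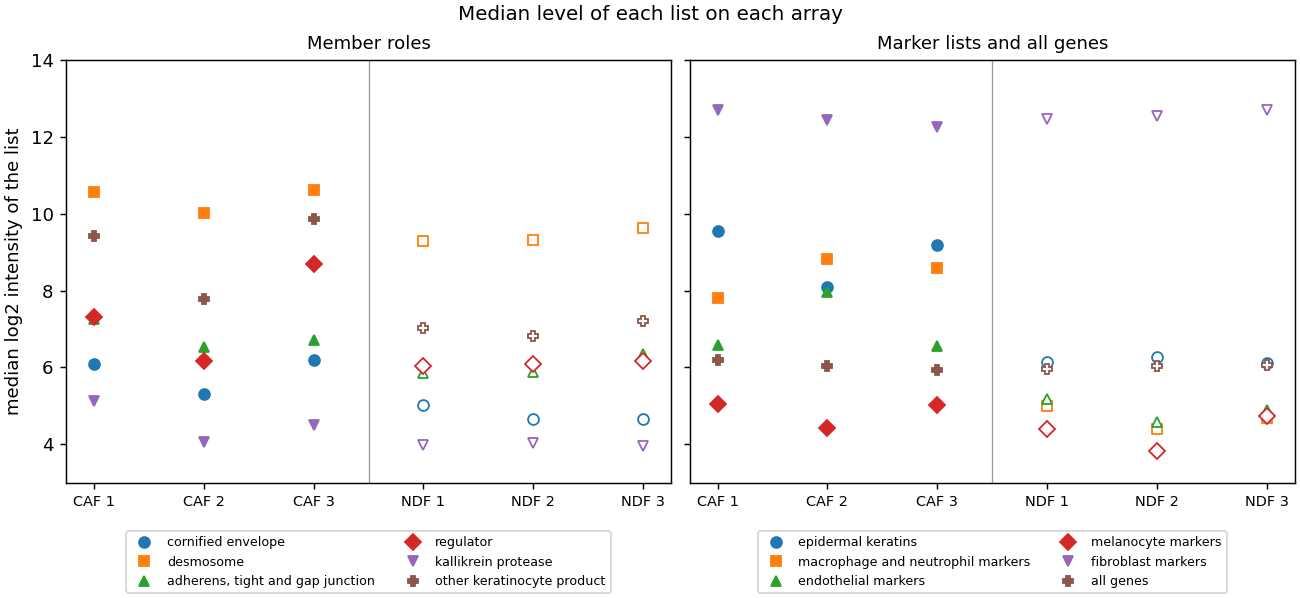
Median log2 intensity (y axis) of each role (left) and of the marker lists and all genes (right) on the 3 CAF arrays (filled) and the 3 NDF arrays (open). CAF replicate 2 is the lowest CAF array in every role, and the highest in the endothelial list and in the macrophage and neutrophil list.

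The members were next set against the basal keratins Krt5 and Krt14 on the same arrays, as a description of which differed by more than these 2. The mean of Krt5 and Krt14 differed by 1.92, and neither was called (Krt5 adjusted p = 0.152, Krt14 adjusted p = 0.115). Relative to that mean 8 of 45 members had a positive change, and the median over the members was -1.25. The relative change was 4.21 for Sprr1b, 2.11 for Gjb2 and 0.70 for Krtdap, and for these 3 every CAF array lay above every NDF array. Such genes made up 0.308% of all genes. The relative change was -2.09 for Dsg2, -1.66 for Dsc3 and -0.94 for Trp63, each with every CAF array below every NDF array. In all, 28 members (62.2%) lay below in this way, against 90.2% of all genes, since subtracting a mean that differed by 1.92 places an unchanged gene below. The median relative change over all genes was -1.96. The values depend on the keratins chosen: with Krt15 added to the mean they were -1.34 for Dsg2, -0.91 for Dsc3, -0.19 for Trp63 and 1.45 for Krtdap. An exact two-sided permutation test of 3 arrays against 3 cannot go below p = 0.1, which Sprr1b, Gjb2, Krtdap and the 28 reached, so this test could pass no threshold of 0.05.

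**Figure D4:**
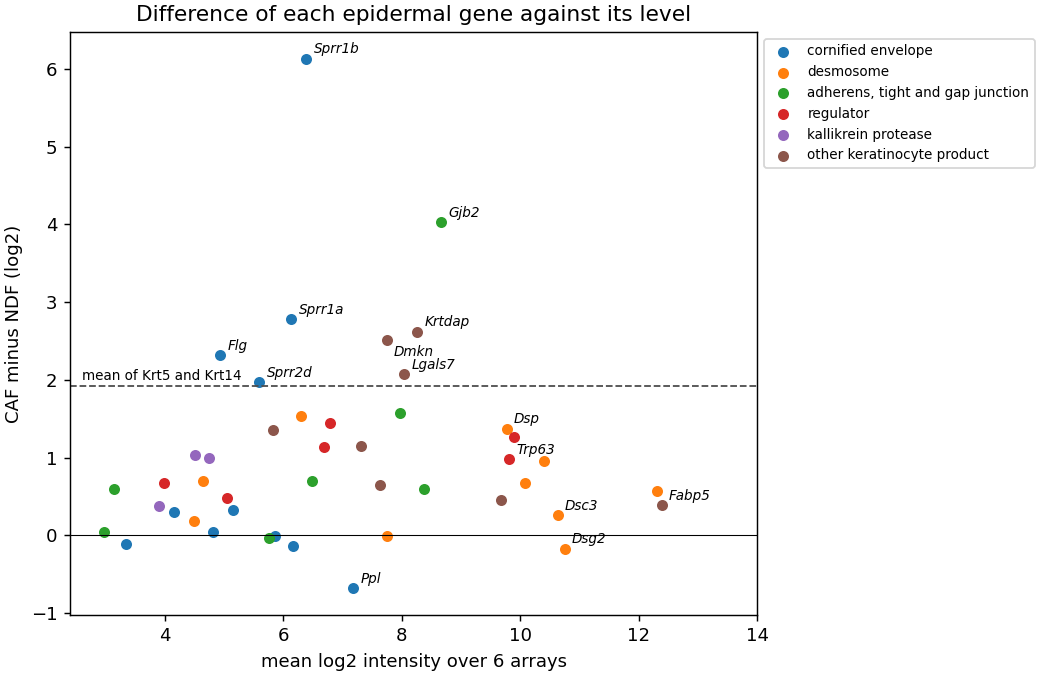
Difference between CAF and NDF (y axis, log2, CAF minus NDF) against the mean log2 intensity over the 6 arrays (x axis) for the 45 measured epidermal genes, coloured by role. The dashed line is the difference of the mean of Krt5 and Krt14, 1.92, which 8 genes exceed.

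Further genes of the epidermal barrier, outside the 46, were tested in the same fit. Of 29 measured barrier lipid, protease and inhibitor genes 2 rose and none fell, with a median of 0.42. Klk13, another kallikrein, was at 8.03, 6.68 and 9.24 in CAF, against 3.53, 3.00 and 3.14 in NDF (4.76 ± 0.60, adjusted p = 0.0333). Il1f9, which encodes the epidermal cytokine interleukin 36γ, was at 5.70, 6.63 and 6.40 in CAF, against 3.65, 3.60 and 3.15 in NDF (2.78 ± 0.29, adjusted p = 0.0204). The protease gene Asprv1 was next, at 1.54 ± 0.26 (adjusted p = 0.0748). For Il1f9, CAF replicate 2 was the highest array, which was so for 0 of the 45 members. Neither the Klk13 nor the Il1f9 call held without any 1 NDF array, where the adjusted p was 0.13 to 0.174 for Klk13 and 0.1 to 0.119 for Il1f9. Klk13 also missed the threshold without CAF replicate 1 (0.0867) and Il1f9 without CAF replicate 2 (0.0548). Of 20 further desmosome and junction genes none passed, and the desmocollin Dsc1 came closest, at 7.94, 6.25 and 8.19 in CAF, against 3.73, 3.25 and 4.26 in NDF (3.71 ± 0.54, adjusted p = 0.0505). The tight junction gene F11r and the desmoglein Dsg1b differed by 1.76 and 2.09 (adjusted p = 0.181 and 0.396). Of 21 further envelope genes none passed, and their median was 0.33. Sprr2h was at 5.42, 5.22 and 7.26 in CAF, against 4.57, 3.56 and 3.86 in NDF (1.97 ± 0.57, adjusted p = 0.312), and Hrnr and Rptn differed by 0.66 and 0.86. Of 20 further regulators, transcription factors apart from the splicing regulator Esrp2, none passed, with a median of 0.16. Ehf, Grhl2 and Tbx3 differed by 2.59, 2.32 and 1.92 (adjusted p = 0.322, 0.358 and 0.468). Esrp2 differed by -0.60, below on every CAF array (limma adjusted p = 0.676). Of the 20 genes, 13 had positive and 7 negative differences. At an unadjusted p under 0.05, 5 of 29 barrier genes, 5 of 20 junction genes, 1 of 21 envelope genes and 4 of 20 regulators were higher, and 0 were lower. The shares of all genes were 4.93% higher and 4.02% lower. The envelope count, 4.76%, was no more than that share.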

How the data were processed

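Expression was measured on Affymetrix mouse genome arrays in 3 CAF and 3 NDF samples. RNA was amplified once before labelling, per the labels' protocols. GCOS and RMA are the tools listed per the submitters' processing notes, with versions not given in the sources used here. By their range, 2.20 to 14.60, the authors deposited log2 intensities. RMA equalises the distributions of arrays and compresses dim values, so no array total is left to serve as depth, and the number of arrays limits the precision. Detection calls were not used here.

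Of 45101 probe sets 64 were controls. Of the other 45037, 34945 named 1 gene by the platform annotation, 932 named several and 9160 were not in it. For each of 18193 genes the probe set with the highest mean was used. The groups were compared in R 4.3.3 with limma 3.58.1 (lmFit and eBayes, group as the only term, no replicate block, two-sided), with Benjamini-Hochberg adjustment over all genes. The fit was tested on simulated data. Figures were drawn with matplotlib 3.10.9.

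The members, roles and other lists were chosen with earlier results of these data known, so no list test was made. The text gives values on every array for members past the threshold and, in each role, the 4 with the smallest p, and it names, from each further epidermal list, up to 3 genes with the smallest p, some by their difference alone. The values for Dsg1a, Esrp2 and single macrophage and neutrophil genes, and the genes in the closing observations, were added after they were seen. Deviations of same-numbered CAF and NDF arrays from their group means correlated at -0.15, 0.11 and -0.01. Those of different-numbered arrays correlated at -0.11 to 0.12. These values show no pairing by number, but with so few arrays they cannot exclude a shared day or pool. Alternatives were renormalisation, filters on dim genes, other probe set choices, other variance models, array quality weights, other thresholds, a replicate block and leaving out arrays. A fit without both CAF replicate 3 and NDF replicate 1 was added after seeing the data, as was leaving out arrays in the test of single probe sets.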

Additional observations from a re-analysis of the deposited data

Results flagged for a closer look

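Probe sets that name several genes were not used for the comparisons, and 2 that cover the Sprr2a copies were higher on every CAF array than on any NDF array. The one shared by Sprr2a1, Sprr2a2 and Sprr2a3 was at 6.78, 6.63 and 7.72 in CAF, against 4.92, 4.66 and 4.40 in NDF, a difference of 2.38 (limma adjusted p = 0.0729 over all probe sets). Another, shared by Sprr2a1 and Sprr2a2, differed by 0.43 (adjusted p = 0.788). One more, with overlapping groups, differed by 1.29. The copies are nearly identical, so their signals cannot be assigned to 1 gene.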

How the results depend on the processing

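Among 872 values of single members under 20 alternatives, 852 stayed on their side of the threshold, 11 lost it and 9 gained it, and no called value changed sign. Of the 852, 36 values, from 13 members that passed in neither setting, changed sign. The median difference of the members was 0.55 to 1.08 over these alternatives. The number of members called, 2 as reported, was 1 on quantile normalisation (Sprr1b), 9 with array quality weights (Cdh1, Dmkn, Dsp, Gjb2, Krtdap, Lgals7, Pkp1, Sprr1a and Sprr1b), and 0 to 3 when 1 array was left out. The weights were 2.56, 0.82 and 0.17 for CAF replicates 1, 2 and 3 and 1.01 to 2.26 in NDF. The number of genes called, 94 as reported, was 155 with an intensity trend, 438 with array weights, 198 at an adjusted p under 0.1, and 5 to 156 when 1 array was left out. Genes of the further lists called, 12 as reported, numbered 23 with array weights and 1 to 14 with 1 array left out. Of the members' probe sets, 1 was called as reported and 0 to 3 with 1 array left out. With the replicate number as a block, 20 genes, 1 member (Gjb2) and 5 genes of the further lists were called. In that fit Sprr1b had a limma adjusted p of 0.063. No label states that equal numbers share mice or a day. The median change relative to basal keratins, -1.25 as reported, was -0.50 when Krt15 was added to Krt5 and Krt14. Without both CAF replicate 3 and NDF replicate 1, Sprr1b and Gjb2 were called. The causes were not tested. Filters left 27 members at or above the median level and 40 at or above the 25th percentile.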

Other observations

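Other cells of the skin appendages were gauged by lists. Of 12 hair follicle and sebaceous genes none passed the test by limma. At an unadjusted p under 0.05 there was 1 higher gene and 1 lower, and the median difference was 0.04. The smallest p was that of the hair keratin gene Krt25, at 5.29, 4.77 and 5.06 in CAF, against 3.83, 3.42 and 4.57 in NDF, with every CAF array above (1.10 ± 0.32, adjusted p = 0.321). The follicle stem cell gene Lgr5, whose groups overlapped, was at 3.96, 3.08 and 3.41 in CAF, against 4.75, 5.07 and 3.63 in NDF (adjusted p = 0.551). Of 7 melanocyte genes none passed by limma, 1 was higher at an unadjusted p under 0.05, and the median was 0.24. The pigment enzyme gene Dct was at 5.37 ± 0.89 in CAF and 4.06 ± 0.31 in NDF (adjusted p = 0.425).

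Not every keratinocyte gene was higher in CAF. The bulge and basal keratin Krt15 was at 9.28, 6.50 and 7.59 in CAF, against 7.73, 8.09 and 8.54 in NDF. Krt2, a keratin of the upper interfollicular epidermis, was at 4.61, 4.19 and 4.66 in CAF, against 5.24, 5.59 and 5.23 in NDF, below on every CAF array (adjusted p = 0.216).

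Some barrier genes were high on a single CAF array. On CAF replicate 3, Sprr2i was at 7.83, against 3.36 and 2.72 on the other CAF arrays and 3.08 to 3.27 in NDF, and the tight junction gene Cldn7 was at 6.11, against 3.47 and 3.41 on the other CAF arrays and 3.25 to 4.10 in NDF. On CAF replicate 1, the kallikrein gene Klk6 was at 6.36, against 3.56 and 4.06 on the other CAF arrays and 3.68 to 4.34 in NDF, beside Klk7 described above.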
